A study of Homo sapiens with 4 samples.

Results

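Long non-coding RNAs (lncRNAs) are transcripts without a long open reading frame, and many of their genes start in places far from any protein-coding promoter. The regions described here are the H3K27ac peaks of K562 cells that lie at such starts. Peaks of the 3 deposited lists were merged where they shared at least 1 bp, and a region was kept when it overlapped the start site with 500 bp on each side of a lncRNA gene in GENCODE release 44 on hg19 and lay more than 2.5 kb from every protein-coding start site. This gave 1659 regions out of 33834. Inside them or within 500 bp lay the starts of 1876 lncRNA genes. Of the regions, 1453 had 1 such start and 206 had 2 or more. In 1470 a lncRNA start lay inside the region itself. A further 2463 regions with a lncRNA start lay within 2.5 kb of a coding start and were left out.

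K562 is a human erythroleukaemia line, and all groups are cultures of that line. One culture carried a non-targeting shRNA (shNT, the control), one carried TFAM-sh1 (hairpin 1) and one TFAM-sh2 (hairpin 2), both hairpins being directed at TFAM, which packages mitochondrial DNA and starts its transcription. Each gave a single H3K27ac library with its own peak list of 23413, 23819 and 27007 peaks, so there is no spread between replicates and no test of the condition; an input library was not analysed here. Intervals in brackets are exact Clopper-Pearson 95% intervals over regions and cover counting error only. The number of reads behind each list was not given in the sources used here, and the longer hairpin 2 list cannot be told apart from a difference in depth or peak calling. The widest peak of any list spanned 8841 bp, so a region without a peak may still have been marked. As a check of the cells, 11 of 17 K562 and early red cell markers, among them TFRC and HBZ, had a promoter peak in the control, 10 in hairpin 1 and 9 in hairpin 2, while GATA1, KLF1, NFE2, LYL1, HBE1 and HBG1 had none in any list. None of the 5 hepatocyte markers had one in any list. Of 5 T cell and 5 B cell markers only CD3D and CD79A had one, in hairpin 1 alone. Of 5 fibroblast markers only COL1A1 had one, in hairpin 2 alone. Of 5 epithelial markers EPCAM, KRT8 and KRT18 had one in every list, while CDH1 and KRT5 had none in any.

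H3K27ac is placed by the acetyltransferases CBP and p300 on nucleosomes beside active start sites and on active enhancers. Promoters of lncRNAs carry it as coding promoters do, but they are often poorer in CpG dinucleotides, and a part of annotated lncRNAs start at enhancers. Several have known roles in blood cells: host genes release microRNAs or small nucleolar RNAs (snoRNAs) from their introns, and others regulate neighbouring genes or respond to p53 and stress.

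The sequences below show what the members look like at their extremes. Each is the stretch from 250 bases before to 50 bases after the annotated start, read 5′ to 3′ on the strand of the gene from GRCh37, the build of the peaks. Capitals mark matches on either strand to short motifs: the GC box (GGGCGG), the CCAAT box (CCAAT), the ETS site (CCGGAAG), the palindromic site of NRF1, the E-box (CACGTG), the GATA site (AGATAA), the AP-1 site (TGACTCA) and the TATA box (TATAAA). No motif holds another whole, though matches may share end letters. The 3 members in all lists with the highest scores are shown first.
SDHAP1 (chr3:195717101-195717400, minus strand): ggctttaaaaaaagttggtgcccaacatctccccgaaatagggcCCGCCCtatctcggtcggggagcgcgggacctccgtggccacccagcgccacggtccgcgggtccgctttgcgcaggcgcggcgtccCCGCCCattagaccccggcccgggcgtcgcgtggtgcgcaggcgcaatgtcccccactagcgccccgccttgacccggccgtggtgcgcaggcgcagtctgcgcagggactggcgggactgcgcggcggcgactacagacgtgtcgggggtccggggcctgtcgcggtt
ENSG00000275180 (chr12:62996896-62997195, plus strand): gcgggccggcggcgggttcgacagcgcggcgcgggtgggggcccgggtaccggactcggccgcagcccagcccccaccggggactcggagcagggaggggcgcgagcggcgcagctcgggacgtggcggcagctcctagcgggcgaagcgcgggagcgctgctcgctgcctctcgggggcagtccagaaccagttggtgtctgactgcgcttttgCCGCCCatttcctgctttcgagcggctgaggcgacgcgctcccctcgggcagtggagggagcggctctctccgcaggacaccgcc
LINC01003 (chr7:152160621-152160920, plus strand): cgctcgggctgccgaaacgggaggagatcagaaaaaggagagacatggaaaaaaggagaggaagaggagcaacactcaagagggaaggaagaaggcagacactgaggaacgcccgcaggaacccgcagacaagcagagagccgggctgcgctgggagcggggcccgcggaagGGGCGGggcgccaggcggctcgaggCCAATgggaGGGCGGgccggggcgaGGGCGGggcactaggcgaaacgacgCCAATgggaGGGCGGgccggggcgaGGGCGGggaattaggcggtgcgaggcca
All of them were rich in G+C, at 68.3% or more, and held at least 1 GC box; that of LINC01003 held 5 GC boxes and 2 CCAAT boxes. The next pair are among the 3 highest-ranked members with a peak in both hairpin lists and none in the control, called gained.
ENSG00000251199 (chr4:135248595-135248894, minus strand): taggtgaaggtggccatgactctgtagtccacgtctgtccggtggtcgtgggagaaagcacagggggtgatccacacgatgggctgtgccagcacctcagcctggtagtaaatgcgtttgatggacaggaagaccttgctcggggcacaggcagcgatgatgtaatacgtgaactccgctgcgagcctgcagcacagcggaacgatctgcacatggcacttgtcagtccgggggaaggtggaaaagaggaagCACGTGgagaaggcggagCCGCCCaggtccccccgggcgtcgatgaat
ENSG00000288872 (chr15:93425521-93425820, minus strand): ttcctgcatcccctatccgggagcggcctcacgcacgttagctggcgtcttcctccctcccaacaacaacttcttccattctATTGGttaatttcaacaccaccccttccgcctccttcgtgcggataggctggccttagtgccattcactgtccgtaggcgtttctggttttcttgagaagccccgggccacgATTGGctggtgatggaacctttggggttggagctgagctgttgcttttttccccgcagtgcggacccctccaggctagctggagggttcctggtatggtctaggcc
ENSG00000251199 held an E-box and a GC box, and ENSG00000288872 held 2 CCAAT boxes. The last is among the 3 highest-ranked members with a peak in the control alone, called lost.
ENSG00000267125 (chr19:1852131-1852430, plus strand): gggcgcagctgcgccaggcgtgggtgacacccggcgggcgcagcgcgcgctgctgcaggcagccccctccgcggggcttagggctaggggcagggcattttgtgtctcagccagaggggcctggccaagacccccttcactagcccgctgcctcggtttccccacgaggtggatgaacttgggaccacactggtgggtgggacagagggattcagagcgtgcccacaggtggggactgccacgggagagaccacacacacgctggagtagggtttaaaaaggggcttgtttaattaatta
The window of ENSG00000267125 held none of the motifs, although its G+C was 64.3%.

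Most of the regions had a peak in every list, each having been kept because at least 1 list held a peak there. Of 15087 lncRNA genes that start over 2.5 kb from coding starts, 1976 (13.1%) had a region at the start. Of the 1659 regions, 1021 (61.5%, 59.2 to 63.9) had a peak in all lists. This share lay between the 86.4% (85.7 to 87.0) of 10218 regions at coding promoters, within 500 bp of a coding start, and the 32.0% (31.4 to 32.6) of 21455 distal regions more than 2.5 kb from coding starts and without a lncRNA start. The intervals of the 3 kinds of region do not overlap. The merged regions also differed in length, with medians of 2433 bp for lncRNA promoters, 2950 bp for coding promoters and 1547 bp for distal regions. A longer region overlaps a start site more easily, and the part of length in these shares was not tested. Over all regions the share was 49.9%. Of the regions with a lncRNA start near a coding start, 88.7% were in all lists.

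**Figure D1:**
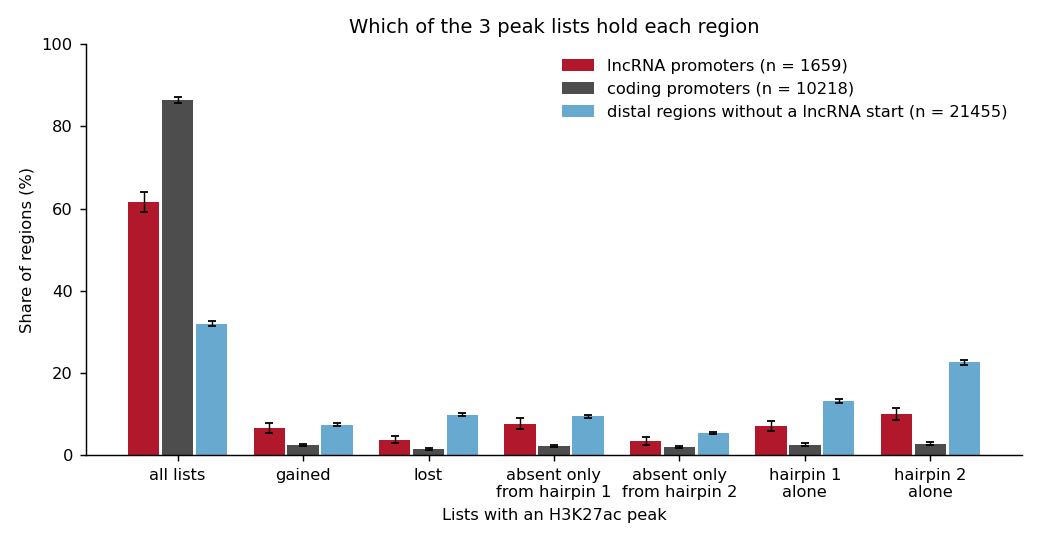
Share of regions (%) by which of the peak lists held them, for lncRNA promoters, coding promoters and distal regions without a lncRNA start; bars are shares and error bars exact 95% intervals. The lncRNA promoters sit at 61.5% in all lists, between coding promoters at 86.4% and distal regions at 32.0%.

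The lncRNA promoters also stood between those kinds of region in peak score. Scores are the authors' own value per peak and were used only as percentiles within a list. For lncRNA promoters the middle rank was percentile 55.4 (control), 54.1 (hairpin 1) and 57.0 (hairpin 2). Coding promoters stood at 75.8, 77.1 and 79.5, and distal regions at 32.3, 31.3 and 33.5. At like control rank the gap narrowed. Among regions at control percentile 0 to 20, 48.1% (40.7 to 55.6) of lncRNA promoters had a peak in both hairpins, against 58.2% of coding promoters and 28.8% (27.4 to 30.3) of distal regions. Between percentiles 40 and 60 the shares were 86.2% (81.6 to 90.0), 90.3% and 77.0% (75.4 to 78.6). Above percentile 80 they were 96.7% (93.9 to 98.5), 99.2% and 96.7%, so that lncRNA promoters and distal regions were alike there. At percentiles 0 to 20 and 40 to 60, lncRNA promoters were thus found again in both hairpins more often than distal regions. Ranks inside a group and region lengths were not matched.

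The first comparison asked which lncRNA promoters had a peak under both TFAM hairpins and not in the control. There were 110 of them, 6.63% (5.48 to 7.94) of the members, against 5.91% of all regions, a share near the background. Lost regions numbered 62, or 3.74% (2.88 to 4.77), against 7.05% of all regions, and this interval lies below the background. The lost share of distal regions was 9.90% and that of coding promoters 1.43%. With the lists brought to equal length, 92 of 1602 members were gained and 80 lost, so the difference between gained and lost counts shrank. The shares of all regions were not computed at equal length. Whether the lost share stays below the background there is not known.

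The gained member with the highest rank was ENSG00000251199 on chromosome 4 (135247631 to 135250911), 124687 bp from the start of PABPC4L. Peaks covered 0 bp of it in the control, 3281 bp under hairpin 1 and 2780 bp under hairpin 2, at score percentiles 68.0 and 71.6 of the hairpin lists. ENSG00000287411 on chromosome 6, 26605 bp from PDCD2, had 0, 1158 and 1948 bp. ENSG00000288872 on chromosome 15 (93423649 to 93429523), 14031 bp from CHD2, a chromatin remodeller gene, had 0, 5537 and 3656 bp. All of these were outside coding genes, and the gained members as a whole ranked low, with median percentiles of 29.96 and 29.8. The other gained members named by rank were ENSG00000290549, ANKRD20A11P, MGC4859, ENSG00000282121, ENSG00000225387, ENSG00000259712 and ENSG00000273805, whose hairpin 1 peaks covered 1090 to 1814 bp and hairpin 2 peaks 1147 to 3069 bp. ENSG00000290549 and ANKRD20A11P are annotated as overlapping a pseudogene; such sequence has close copies, and only reads with a single place in the genome were kept. MGC4859 had its nearest coding start at NDUFA4, a respiratory chain subunit gene, 158961 bp away. Of the 10, only ENSG00000282121 started inside a coding gene, antisense in ANK3. A gained member chosen after its values were seen was EP300-AS1, named for the gene of the acetyltransferase p300, with 0, 1259 and 664 bp on chromosome 22 (41592949 to 41594207). A control peak lay 6917 bp away from it.

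The lost member with the highest rank, ENSG00000289481 on chromosome 22, had 3258 bp in the control, at score percentile 99.7, and 0 bp in both hairpins. The region, which also holds the start of LINC01311, lay 5086 bp from SLC25A1, the gene of the mitochondrial citrate carrier. The nearest peaks of the hairpin lists lay 10743 and 10607 bp away. In lists without peaks over 8841 bp, this does not show that the region was unmarked under the hairpins. Lower in rank, ENSG00000267125 on chromosome 19 had 6724, 0 and 0 bp at percentile 56.7, and ENSG00000223946, antisense inside the cyclin gene CCND3, had 6243, 0 and 0 bp at percentile 54.7. Further lost members named by rank were ENSG00000287145, ENSG00000229313, ENSG00000236990, LINC02505, ENSG00000261864 and LINC02939, with 912 to 4438 bp in the control at percentiles 39.99 to 48.1. Above control percentile 80, 2 of the 275 lncRNA promoters were lost (0.73%), against 0.21% of all regions. Between percentiles 60 and 80 none of the 275 was lost, against 0.77% of all regions.

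Taken hairpin by hairpin, 228 members had a peak in hairpin 1 and none in the control, 13.7% against 15.6% of all regions, and 188 had a control peak and none in hairpin 1, 11.3% against 14.3%. With hairpin 2, 276 were present there and not in the control, 16.6% against 21.9%, and 118 were in the control and not in hairpin 2, 7.11% against 11.3%. All 4 shares of the members were below the background. With equal list lengths the hairpin 2 counts were 213 and 154, closer to each other, and those of hairpin 1 were 216 and 196. No background was computed for these counts. Of the control-marked members, 14.9% (12.9 to 16.9) lacked a hairpin 1 peak and 9.33% (7.78 to 11.1) lacked a hairpin 2 peak. The hairpin lists differed from each other by a like amount. Of the members in hairpin 2, 20.5% (18.4 to 22.7) lacked a hairpin 1 peak and 19.4% (17.4 to 21.5) a control peak. Of those in hairpin 1, 13.3% (11.5 to 15.3) lacked a hairpin 2 peak and 17.5% (15.4 to 19.6) a control peak. The comparisons of each hairpin with the control share the control list.

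A further set had a peak in the control and hairpin 2 and none in hairpin 1. They numbered 126, or 7.59% (6.37 to 8.98), against 7.21% of all regions, while 56 were absent only from hairpin 2, 3.38% against 4.29% of all regions. The counts are near their background. The ranks of the sets overlapped within their intervals: 14.3% (8.69 to 21.6) of those absent only from hairpin 1 and 12.5% (5.18 to 24.1) of those absent only from hairpin 2 were in the upper 50% of both other lists, against 6.51% and 7.30% over all regions. The gained members had 3.64% there (4 of 110), against 2.80% of all gained regions. The distance to the nearest peak of the list without one differed more. Of the 126, 38 (30.2%, 22.3 to 39.0) had no hairpin 1 peak within 100 kb. Of the 110 gained members only 8 (7.27%, 3.19 to 13.8) lay that far from a control peak, and of the 56 absent only from hairpin 2 only 6 (10.7%, 4.03 to 21.9) lay that far from a hairpin 2 peak. This also holds for regions in general, with 20.8% over 100 kb away for those absent only from hairpin 1, 6.75% for gained ones and 7.58% for those absent only from hairpin 2. Regions that were both in the upper 50% and over 100 kb away numbered 59 in all for hairpin 1, and 9 of them were lncRNA promoters; gained regions of this kind numbered 6, with 1 lncRNA promoter, and those absent only from hairpin 2 numbered 6, with 1. The cause, a single library for each hairpin included, was not tested.

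The 9 lncRNA promoters, chosen after their values were seen, were ENSG00000234426, ENSG00000288618, UCA1, ENSG00000235774, SAMMSON, ENSG00000267327, F11-AS1, ENSG00000248268 and LINC02893. ENSG00000234426 on chromosome 6 (89129355 to 89131615) had 2261 bp in the control and 2018 bp in hairpin 2, at percentiles 92.0 and 93.5, and 0 bp in hairpin 1, whose nearest peak was 492398 bp away. UCA1, a lncRNA first described in bladder cancer, lay on chromosome 19 with 5275, 0 and 4394 bp in the control, hairpin 1 and hairpin 2. Next to it, ENSG00000288618 (15945447 to 15949744) had 3993, 0 and 4084 bp. The nearest hairpin 1 peak was 237519 bp from UCA1, so none lay at either start. SAMMSON, a lncRNA of melanoma cells that lies beside MITF and acts on mitochondrial protein p32, had 2219, 0 and 989 bp on chromosome 3, with the nearest hairpin 1 peak 256818 bp away. PURPL, a p53-induced lncRNA that holds p53 levels down, had 6170, 0 and 6094 bp on chromosome 5, at lower ranks of 32.6 and 45.2. Its nearest hairpin 1 peak was 1584360 bp away. All were taken from the set absent only from hairpin 1, so cover in the control and hairpin 2 alone follows from that choice.

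**Figure D2:**
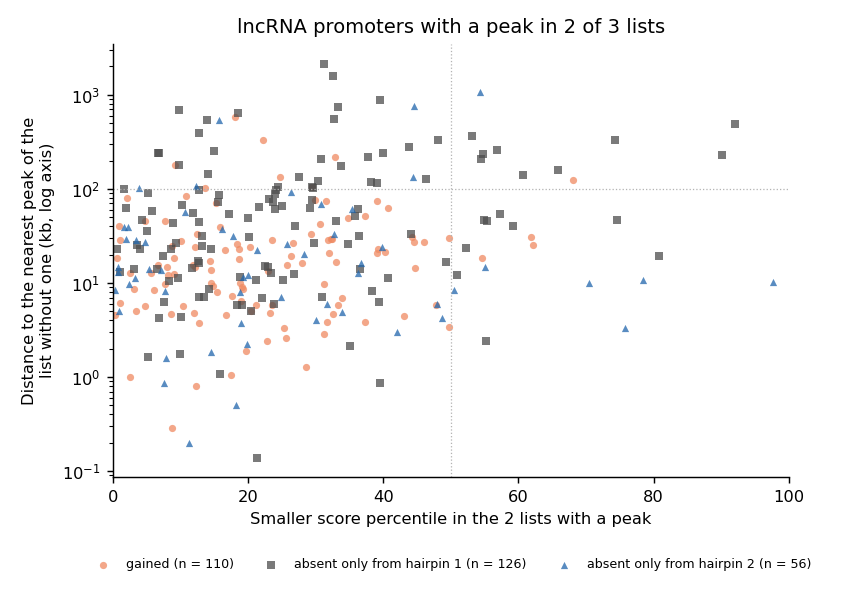
Each point is a lncRNA promoter with a peak in 2 of the 3 lists; the x axis is its smaller score percentile in those lists and the y axis the distance to the nearest peak of the list without one (kb, log axis, distances under 0.1 kb drawn at 0.1), with dotted lines at percentile 50 and 100 kb. In the upper right field lie 9 members absent only from hairpin 1, 1 gained member and 1 absent only from hairpin 2.

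Widths were compared in the 1021 members with a peak in all lists. In the middle of the distribution 2271 bp were covered with the control hairpin, 2260 bp with hairpin 1 and 2538 bp with hairpin 2. On the log2 scale, hairpin 1 against control had a median of 0.06 with quartiles of -0.28 and 0.36. Hairpin 2 against control had 0.15, with quartiles of -0.11 and 0.46. Over all regions in all lists these medians were 0.05 and 0.12, close to those of the lncRNA promoters. Between the hairpins the median log2 ratio, hairpin 2 over hairpin 1, was 0.11, between the 0.06 and the 0.15 of the hairpins over the control. In hairpin 1, 62 members were over 2-fold wider (background 5.07%) and 44 over 2-fold narrower (background 3.81%), out of 1021. In hairpin 2, 91 were over 2-fold wider (background 6.4%) and 17 narrower (background 1.84%). In both hairpins 32 were over 2-fold wider (background 2.46%) and 3 over 2-fold narrower (background 0.51%).

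The member that widened most in both hairpins was LINC02846 on chromosome 9 (138997769 to 139004127), with 1693, 6359 and 5789 bp in the control, hairpin 1 and hairpin 2. ENSG00000288842 on chromosome 21 had 546, 1864 and 2497 bp, and GLYCTK-AS1 on chromosome 3 had 1206, 3950 and 4361 bp. CASTOR3P had 1105, 3586 and 4524 bp, and ENSG00000285677, antisense inside ARHGEF2, had 990, 3128 and 3423 bp. These members were chosen by the smaller of their hairpin ratios, so a narrow control follows from the choice. The control peaks of ENSG00000288842, GLYCTK-AS1 and ENSG00000285677 ranked low, at percentiles 1.44, 8.57 and 15.3. Those of LINC02846 and CASTOR3P stood at 41.4 and 56.6. The 5 that narrowed most were ENSG00000282535 on chromosome 19 (7370, 1533 and 2465 bp), ENSG00000236501 on chromosome 2 (5001, 929 and 1956 bp), SIMALR beside TNFAIP3 (3148, 862 and 1305 bp), LINC02193 on chromosome 16 (6701, 1758 and 3435 bp) and ENSG00000228692 on chromosome 6 (3631, 1683 and 1958 bp). Base composition differed between these groups: the regions that widened had 50.8% to 63.6% G+C, and those that narrowed 34.1% to 42.96%.

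**Figure D3:**
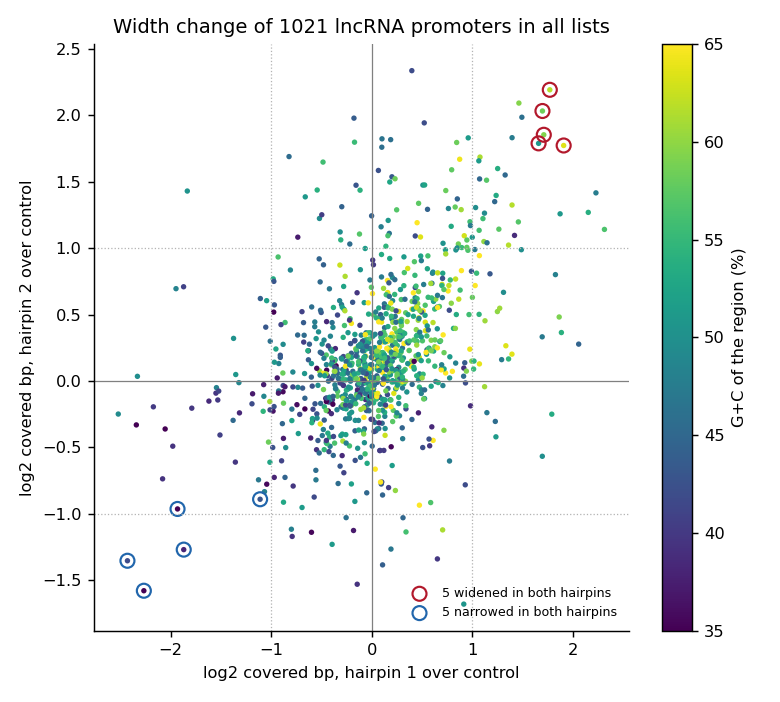
Log2 ratio of covered bp over the control for the 1021 lncRNA promoters in all lists, hairpin 1 on the x axis and hairpin 2 on the y axis, coloured by G+C (%), with dotted lines at 2-fold; the axes share the control library. Circles mark the 5 members that widened most in both hairpins, all at 50.8% G+C or more, and the 5 that narrowed most, all at 42.96% or less.

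Base composition moved with these differences across the members. Members in all lists had a median G+C of 50.97%, gained members 53.5% and lost members 44.6%. For all regions of these classes the medians were 50.5%, 50.5% and 40.8%. With all regions divided into 5 groups of like size by G+C, the lncRNA promoters of the lowest group (up to 41.9%) had 7 gained and 22 lost, and those of the highest group (over 56.5%) 35 gained and 11 lost. In the lowest group these were 3.40% and 10.7% of the members, against 3.73% and 20.0% of all regions. In the highest group they were 8.84% and 2.78%, against 7.58% and 2.66% of all regions. Widths over the control had median log2 values of -0.45 (hairpin 1) and -0.17 (hairpin 2) in the lowest group, and 0.24 and 0.23 in the highest. All regions went the same way, with -0.34 and -0.14 in the lowest group and 0.21 and 0.23 in the highest. The part of G+C in the gains and losses was not tested. The share in all lists ran from 53.9% (46.8 to 60.8) in the lowest group to 66.8% (61.9 to 71.4) in the fourth, and was above that of distal regions, 29.7% to 34.4%, in every group.

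**Figure D4:**
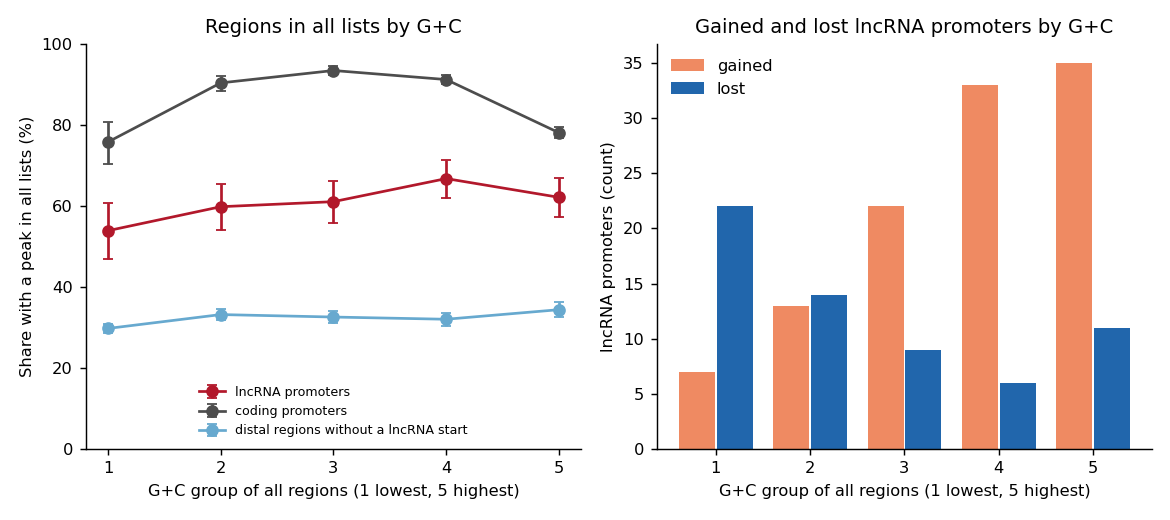
Left, share of regions with a peak in all lists (%) by G+C group for the lncRNA promoters, coding promoters and distal regions, with exact 95% intervals. Right, number of gained and lost lncRNA promoters per G+C group: 7 gained and 22 lost in the lowest, 35 and 11 in the highest.

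CpG content and GC boxes were higher in members marked throughout than in gained or lost members. The ratio of observed to expected CpG had a median of 0.47 for members marked throughout, 0.32 for gained members and 0.31 for lost members. For all regions of these classes the medians were 0.51, 0.26 and 0.22. Over every class together the median was 0.40 for lncRNA promoters, 0.63 for coding promoters and 0.23 for distal regions. In the 300 bases around the start, 45.6% (42.6 to 48.8) of members in all lists held a GC box, 29.1% (20.8 to 38.5) of gained and 9.68% (3.63 to 19.9) of lost members. Over all 18702 lncRNA starts the share was 22.5%, and over all 20176 coding starts 60.9%. The GC box match is itself made of G and C, and the lost windows had a median G+C of 47.3% against 58.3% in all lists. A GATA site, the motif of the erythroid GATA factors, was found in 12.1% of members in all lists, 8.18% of gained and 17.7% (9.20 to 29.5) of lost members, and in 14.1% of all lncRNA starts. An AP-1 match was found in 16.7% (10.6 to 24.3) of members absent only from hairpin 1, in 12.5% (5.18 to 24.1) of those absent only from hairpin 2, in 10.8% of those in hairpin 2 alone and in 9.68% of lost members. It was found in 7.54% of members in all lists, 5.08% of those in hairpin 1 alone, 2.73% (0.57 to 7.76) of gained members and 5.82% of all lncRNA starts. The intervals of the sets absent from a single hairpin overlap. Shares with a CCAAT box were close to each other, at 32.4% for members marked throughout, 31.8% for gained members and 27.4% for lost ones. An NRF1 match, the site of a regulator of nuclear genes for mitochondria, was found in 20 members (1.21%), 19 of them in all lists, against 0.56% of all lncRNA starts. These are matches of letters in a window and not bound sites.

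Kinds of lncRNA differed in how often they were marked in all lists. Of the members, 1219 started outside coding genes, 350 antisense inside one and 90 in the sense direction inside one, and 63.9% (61.1 to 66.6), 54.0% (48.6 to 59.3) and 58.9% of them were in all lists. Host genes with an SNHG symbol or a microRNA host symbol were in all lists in 28 of 30 cases (93.3%, 77.9 to 99.2), with none gained and none lost. Members known by an Ensembl ID only were in all lists in 544 of 953 cases (57.1%, 53.9 to 60.3), and those with a LINC symbol in 152 of 252 (60.3%). The 168 members whose gene overlaps a pseudogene reached 77.4% (70.3 to 83.5). By distance from coding starts the shares were 62.2% at 2.5 to 10 kb, 63.0% at 10 to 50 kb, 64.1% at 50 to 100 kb and 56.9% (51.9 to 61.7) beyond 100 kb. At the edge of the rule, the member nearest to a coding start was ENSG00000262768, 2504 bp from CBX8, with 2173, 5169 and 3122 bp. The nearest region left out was that of ENSG00000269392, 2473 bp from NAPSA, with 2360, 2334 and 1971 bp.

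The top-scoring members included several with near-copies in the genome. SDHAP1 and SDHAP4 on chromosome 3 carry sequence of SDHA, a subunit gene of succinate dehydrogenase. SDHAP1 had 2363, 1727 and 2026 bp in the control, hairpin 1 and hairpin 2, and SDHAP4 had 2241, 2019 and 2079 bp, both above percentile 98 of every list. With near-copies elsewhere their values are uncertain. LINC01003, beside the methyltransferase gene KMT2C, had 3265, 3728 and 2956 bp, and ENSG00000275180 on chromosome 12 had 3509, 3234 and 3339 bp. The other 6 were ENSG00000242588, ENSG00000272366, ENSG00000229178, ENSG00000288909, ENSG00000260369 and ENSG00000290854, with 1770 to 3512 bp in the control. None of the 10 changed its width by 2-fold in either hairpin.

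Known lncRNAs were read from 5 lists with 130 distinct genes, 121 of them annotated as lncRNA genes and 50 of them members. Of these 50, 43 were in all lists and none was gained or lost. Among all members 61.5% were in all lists, and of all regions 5.91% were gained and 7.05% lost. With all basic transcript starts, 58 listed genes were members and 43 of those were in all lists. The snoRNA host genes hold in their introns snoRNAs that guide ribosomal RNA modification. Of these host genes, 16 of 27 were members and 15 of those were in all lists. SNHG6 had 7020, 5063 and 5723 bp in the control, hairpin 1 and hairpin 2, and SNHG16 had 5927, 5104 and 6010 bp. SNHG5 had 5986, 4102 and 5041 bp and SNHG12 had 4715, 4599 and 4530 bp. Of the 15, 9 were narrower than the control in both hairpins and 4 wider in both, where 23.7% of all regions in all lists were narrower in both and 42.6% wider in both. They had median log2 ratios of -0.22 and -0.03 beside 0.06 and 0.15 over all members in all lists. The exception was SNHG29 on chromosome 17, chosen after its values were seen, with 5747, 6432 and 0 bp. Its nearest hairpin 2 peak was 8334 bp away.

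All 11 microRNA host genes among the members were in all lists, out of 30 listed. MIR17HG, which carries an oncogenic microRNA cluster, had 6887, 5171 and 4896 bp in the control, hairpin 1 and hairpin 2 on chromosome 13 (91998337 to 92005223), at percentiles 96.96, 99.98 and 99.99. It was narrower in both hairpins although it stayed near the top of each list. LINC-PINT, induced by p53, had 6699, 6417 and 7223 bp. MIR4435-2HG, which extends the life of myeloid cells, had 4644, 4467 and 5972 bp, and MIRLET7A1HG had 4885, 4591 and 4677 bp. Their median log2 ratios were -0.06 and 0.11, beside 0.06 and 0.15 over all members in all lists, so the sign differed in hairpin 1.

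Of 32 abundant or nuclear lncRNAs 12 were members, 11 of them in all lists. CYTOR had 4384, 4791 and 5789 bp, and NORAD, which binds PUMILIO proteins and guards chromosome stability, had 4528, 3479 and 4649 bp. FTX, a regulator of the X-inactivation centre, had 3466, 3352 and 4155 bp. KCNQ1OT1, the imprinted antisense RNA of KCNQ1, widened in both hairpins with 2559, 3382 and 3877 bp, and TERC, the telomerase RNA, with 1687, 2474 and 2249 bp, both chosen after their values were seen. PVT1, the neighbour of MYC, differed by less, with 3269, 3166 and 3133 bp. MALAT1 and NEAT1, nuclear RNAs that are abundant in most cells, had no region at the start site in any list, which in lists without peaks over 8841 bp does not show that they were unmarked.

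Of 34 blood cell and leukaemia lncRNAs 12 were members and 8 were in all lists. DLEU1 had 6846, 4545 and 6664 bp and DLEU2, which hosts microRNAs lost in chronic lymphocytic leukaemia, had 5196, 4103 and 4799 bp. Hairpin 1 was the lowest library in both. Of the other 4 members UCA1, LUNAR1 and LUCAT1 were absent only from hairpin 1 and EGOT was in hairpin 1 alone, at score percentile 1.62. LUNAR1, a NOTCH1-induced enhancer RNA of IGF1R, had 1243, 0 and 790 bp, and LUCAT1, a stress-induced lncRNA, 767, 0 and 861 bp. Of 26 p53, hypoxia and stress lncRNAs 9 were members, 6 in all lists and 3 absent only from hairpin 1, namely PURPL, SAMMSON and LUCAT1. MIR210HG, the hypoxia-induced host gene, had 2078, 2084 and 2228 bp, with nearly the same length in every culture. Across the 5 lists, 5 of 50 members were absent only from hairpin 1 (UCA1, LUNAR1, LUCAT1, PURPL and SAMMSON), near the 7.21% of all regions. SNHG29 was the one absent only from hairpin 2.

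**Figure D5:**
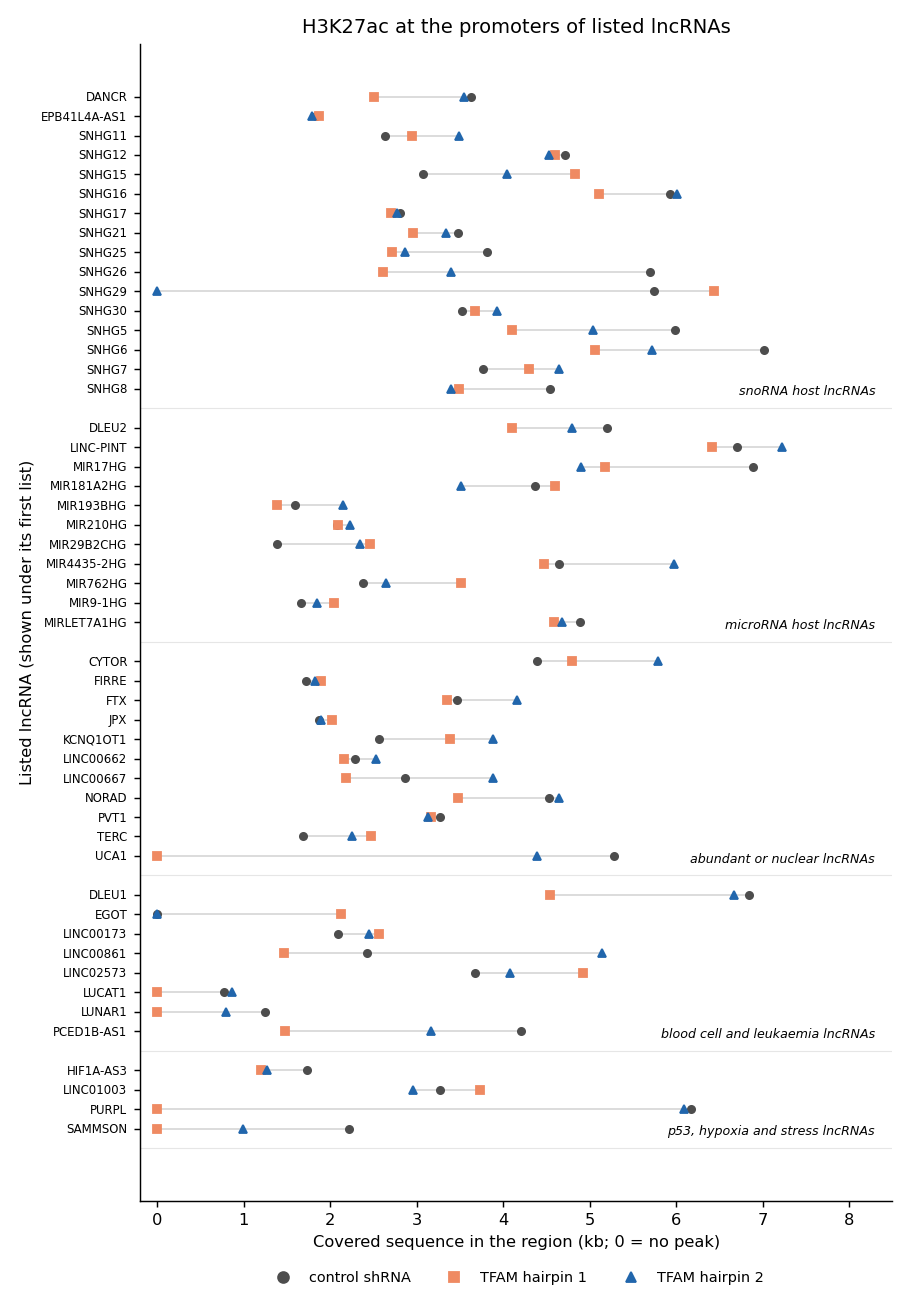
Covered sequence (kb) in the region of each of the 50 listed lncRNAs that are members, for the control (circle), hairpin 1 (square) and hairpin 2 (triangle), with 0 for no peak. Markers lie close together for most genes, while UCA1, LUNAR1, LUCAT1, PURPL and SAMMSON have hairpin 1 at 0. SNHG29 has hairpin 2 at 0, and EGOT has both the control and hairpin 2 at 0.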

How the data were processed

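Peak lists of 3 H3K27ac ChIP-seq libraries were used, grouped by sample title. Per the labels' protocols, reads that fitted 1 place in hg19 were kept; the tools listed, with no role stated, are Picard and Bowtie 0.12.7 on hg19, per the submitters' processing notes. The deposited score of each peak was made by the authors and is about 50 or more; peak names carry a MACS prefix, and caller version, threshold and use of the input are not given in the sources used here. Gene models were those of GENCODE release 44 lifted to GRCh37 (18702 lncRNA and 20176 protein-coding genes), with starts of canonical transcripts, or the gene's 5' end for coding genes without one. Covered bp per region were compared as log2 ratios, with no test. Members, lists and naming rule were chosen with earlier results of these data known: by rank the 10 gained, 10 lost and 10 top-scoring members and the 5 that widened and the 5 that narrowed most, and per list the gained or lost members, otherwise up to 4 with most covered bp. A region bears the name of the lncRNA whose start is nearest to its centre. Code was tested on 3 simulated data sets of 33834 regions. Alternatives covered peak selection, merging, start sites, windows and gene sets. Figures were drawn with matplotlib 3.10.9, and values computed with SciPy 1.17.1, pandas 2.3.3 and numpy 2.4.6 in Python 3.11.15. A few members and sequences are not reported here.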

Additional observations from a re-analysis of the deposited data

How the results depend on the processing

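No paired analysis was possible because each group has 1 library. In the 14 of 16 alternatives that bear on occupancy, gained members outnumbered lost ones in all 14, and the share in all lists ran from 55.0% to 66.2%. With the higher-scoring 50% of each list the share in all lists was 55.0%, lost members numbered 37 and gained 81, members in hairpin 1 and not the control 151, the reverse 119, members in the control and not hairpin 2 74, and the median log2 width ratios were 0.010 and 0.10. With equal list lengths 92 were gained and 80 lost. The share in all lists was 64.1% with gene 5' ends, 59.0% with all basic transcript starts, 64.8% with 100 bp around the start, and 66.2% with the start inside the region, a setting chosen after seeing the data. In these settings the set of members itself changes. Shares over all regions were not computed for the alternatives. Of the 40 members named by rank, 40 kept the lists that held them with equal list lengths and 19 with the higher-scoring 50%, where 10 changed and 11 were no longer members. Without genes that overlap pseudogenes, also chosen after seeing the data, 100 were gained and 60 lost. Depth was not given, so weak regions cannot be told from unmarked ones.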
